A study of Mus musculus with 2 samples.

Results

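The transcriptome of dendritic cells from the lamina propria of the mouse small intestine was read on 1 of the 2 arrays of the study, as an order of genes by signal within that array. The dendritic cells were taken by their label and had been gated as CD11c+MHCII+. They came from C57BL/6 mice aged 8 weeks and had received no stimulation. The other array held eosinophils of the same strain, age and tissue, also unstimulated, gated as CD11b+, CD11c intermediate, MHCII- and SiglecF+. The labels do not say how many animals gave cells to each sort, or whether cells were pooled. Each gene was represented by the brightest of its probe sets that the platform annotation assigns to 1 gene, which gave 12393 genes from 20380 of 22690 probe sets. The description turns on the 300 highest of these genes, 2.42% of the genes measured. With 1 array there is no replicate error, so no test was made, and differences in rank describe this array.

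Dendritic cells take up antigen in tissues, cut it into peptides in lysosomes and in the cytosol, and display the peptides on MHC molecules to T cells. MHC class II peptides are loaded in endosomes after the invariant chain Cd74 is removed by cathepsins, and class I peptides are loaded in the endoplasmic reticulum after transport by Tap1 and Tap2. In the intestine, the conventional dendritic cells that carry CD103 (the product of Itgae) are known for carrying antigen to lymph nodes, and one branch of them depends on Irf8 and Batf3 and the other on Irf4 and Notch2.

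A signal depends on the binding strength of the probes as well as on the amount of RNA, so the order is one of signals and not of transcript numbers. Among the 1478 genes with several probe sets, all above the floor described below, the pooled SD between probe sets of the same gene was 1.44 on the log2 scale, or 2.71-fold (3697 probe sets). Neighbours in the order are closer than that. The genes just inside the 300 highest were Rpn1 (signal 7336), Ndufa3 (7311) and Gsn (7283), and those just outside were Actn1 (7270), Arf1 (7231) and Fam107b (7229).

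The 7 marker genes given for these cells all gave a signal above the floor, and 6 of 7 were among the 300 highest genes. Cd74, the invariant chain, had a signal of 64399 at rank 4. H2-Aa, the alpha chain of the class II molecule I-A, had 34014 at rank 22, with 23902 from its other probe set. H2-Ab1, the beta chain, had 31759 at rank 27, with 28199 and 11055 from the other probe sets. All 3 genes were thus high on every probe set, and the class II protein that H2-Aa and H2-Ab1 encode was part of the gate. Dpp4 (CD26, a surface peptidase of dendritic cells) had 21152 at rank 67, although its other probe set gave 410. Ccl17, a chemokine for T cells that carry Ccr4, had 18045 at rank 88. Itgae, the integrin chain CD103, had 7961 at rank 262. Irf8, a transcription factor of the first conventional lineage, was the lowest of the markers with 4835 at rank 508 and 2365 on its other probe set. Of the other genes of the gates, Itgax (CD11c) had 5994 at rank 395, whereas Siglecf had 112 and Itgam (CD11b) 87.1, both under the floor. On the eosinophil array, whose cells were gated as CD11b+ and SiglecF+, Siglecf gave 6977 but Itgam only 227. The Itgam signal here therefore does not show that CD11b was absent.

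The floor used throughout was 134.7, the median signal of all probe sets of both arrays pooled. Of 135 genes of germ cells, lens, hair, eye and smell that were used as a background list, 12 lay above it, and the 95th percentile of that list was 165.6. At or above the floor stood 6471 of the 12393 genes, 52.2% of them.

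Signal was concentrated in few genes. The 197 genes at or above 10000 were 1.59% of all genes and gave 35.9% of the summed signal. A further 643 genes lay between 3000 and 10000 and gave 28.8%, and 1212 genes between 1000 and 3000 gave 18.1%. The 4419 genes between the floor and 1000 gave 14.4%, and the 5922 genes under the floor, 47.8% of all genes, gave 2.75%. The highest gene gave 0.725% of the summed signal, the 10 highest 5.30%, the 30 highest 11.6%, the 100 highest 25.2%, the 300 highest 43.4% and the 1000 highest 68.5%. The plot of signal against rank shows this fall without a gap at rank 300.

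**Figure D1:**
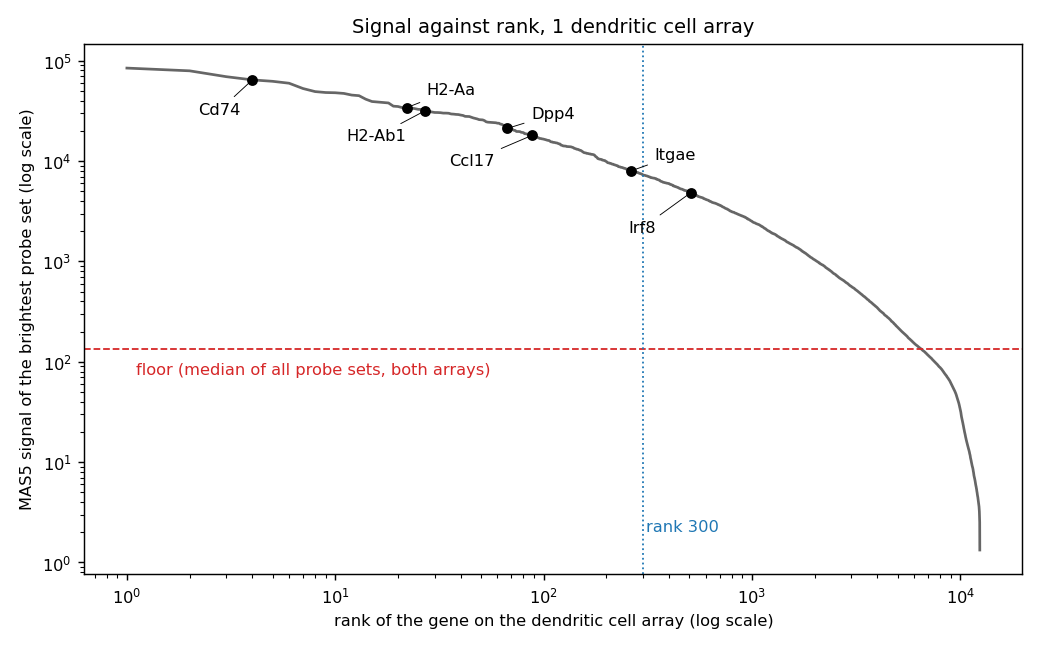
MAS5 signal (log scale) of each of the 12393 genes against its rank (log scale) on the dendritic cell array. Signals fell from 84427 at rank 1 to 7283 at rank 300, and 6471 genes lay at or above the floor of 134.7.

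The gene with the highest signal was Tmsb10, a small peptide that binds actin monomers, at 84427. Its relative Tmsb4x followed at rank 7 with 52817, and Cfl1, cofilin, which severs actin filaments, at rank 9 with 48186. Ribosomal protein genes took 12 of the 30 highest places, from Rpl41 (79262, rank 2), Rpl35 (69298, rank 3), Rps29 (62331, rank 5) and Rpsa (59654, rank 6) downward. Antigen presentation took 5 places, with Cd74, H2-Eb1 (41365, rank 14), H2-Aa, H2-Ab1 and the class I heavy chain H2-D1 (31376, rank 28). Cst3, cystatin C, an inhibitor of cysteine proteases of the lysosome, stood at rank 8 with 49229. Gm2a, a lysosomal activator of ganglioside breakdown, stood at rank 18 with 37929. Cox5b, a subunit of cytochrome c oxidase, had 47930 (rank 10) and Ndufb11, a subunit of respiratory complex I, had 32667 (rank 26). Sod1, the cytosolic superoxide dismutase, had 44823 (rank 13). The remaining genes of the 30 were Ywhae (38759), a phosphoprotein-binding adaptor, H2az1 (34961), a histone variant, Lgals1 (33369), a galectin, Pttg1ip (30854) and Srgn (30476), the proteoglycan core of secretory granules.

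Each of the 300 highest genes was placed in 1 of 15 classes by its known role, after the order had been seen, so the class sizes are a description. The largest were cytosolic ribosomal proteins and RNA or chromatin genes, with 35 genes each. They differed in height: 29 of the 35 ribosomal genes but 5 of the 35 RNA and chromatin genes were among the 100 highest, a list that holds 0.807% of all genes. Ribosomal genes gave 21.2% of the signal of the 300 genes and RNA and chromatin genes 8.35%. Folding, secretory pathway and ubiquitin genes (28 genes, 6.72%), mitochondrial genes (28 genes, 8.33%), immune surface, secreted and adaptor genes (26 genes, 7.94%) and cytoskeletal genes (23 genes, 9.87%) came next. Antigen presentation held 11 genes and 5.86% of the signal, with 7 of the 11 among the 100 highest. The 8 lysosomal genes gave 3.80%. The 20 genes of early response and growth control held no place among the 30 highest and gave 4.08%.

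**Figure D2:**
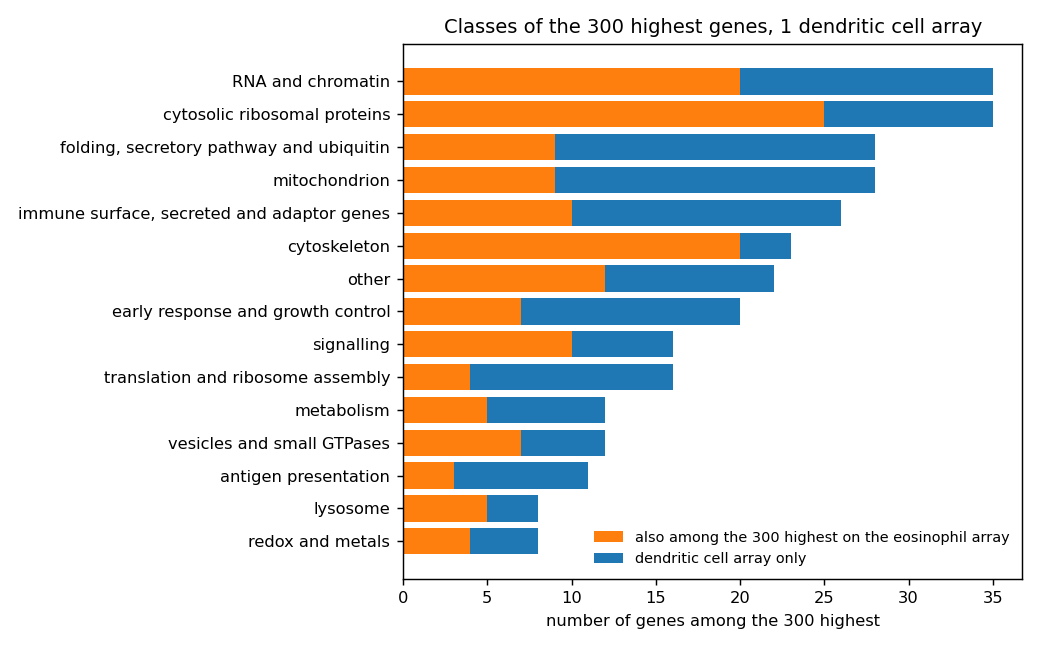
Number of genes in each of 15 classes among the 300 highest genes of the dendritic cell array, divided by whether the gene was also among the 300 highest of the eosinophil array. Ribosomal proteins and RNA or chromatin genes had 35 genes each and antigen presentation 11.

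Of the 300 genes, 150 (50%) were also among the 300 highest on the eosinophil array. By class, the shared genes were 25 of 35 ribosomal and 20 of 23 cytoskeletal genes, against 3 of 11 antigen presentation genes and 9 of 28 mitochondrial genes. Of the other 150 genes, 54 ranked beyond 1000 on the eosinophil array and 11 were under the floor there. These overlaps come from 1 array each and were not tested.

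The class II antigen presentation genes ranged from rank 4 to rank 4373. Of 12 measured genes of the list, 7 were among the 300 highest genes and all 12 lay above the floor, beside 2.42% and 52.2% of all genes. The 4 highest were Cd74 and the chains H2-Eb1, H2-Aa and H2-Ab1. Ifi30, a lysosomal thiol reductase that unfolds antigens, had 15351 (rank 112). H2-DMa, a chain of the peptide exchange factor, had 8777 (rank 230), and H2-DMb2, a gene of its partner chain, had 704 (rank 2581). H2-DMb1, the other gene of the partner chain, was not among the measured genes, so the level of that chain is not known. H2-Oa, a chain of the inhibitor of that exchange factor, had 4419 (rank 555). The cathepsin Ctss, which cuts the invariant chain, had 4458 (rank 549), and Ctsl had 447 (rank 3452). Ciita, the coactivator that switches class II genes on, had 289 (rank 4373), the lowest signal of the list. H2-Ea had 13282 (rank 142), with 11953 and 52.7 from its other probe sets. C57BL/6 mice are known to carry a defective H2-Ea allele, and whether the 2 bright probe sets bind other RNA was not tested.

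Class II promoters are known for an X box and a Y box that hold the factors to which Ciita binds. The start regions of 2 high and 2 lower class II genes are shown from RefSeq (GRCm38.p6), from 140 bases before to 20 bases after the start, on the gene's strand. Capitals mark matches to the X box core AACNGATG and to the Y box letters ATTGG, also where these lie on the other strand.

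H2-Eb1 (chr17:34305727-34305886, plus strand): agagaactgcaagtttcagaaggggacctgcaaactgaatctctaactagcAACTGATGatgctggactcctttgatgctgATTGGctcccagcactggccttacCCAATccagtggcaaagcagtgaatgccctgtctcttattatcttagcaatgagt

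H2-Aa (chr17:34287804-34287963, minus strand): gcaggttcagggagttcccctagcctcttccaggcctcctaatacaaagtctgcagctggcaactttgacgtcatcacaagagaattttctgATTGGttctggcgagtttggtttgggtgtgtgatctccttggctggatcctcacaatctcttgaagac

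H2-Oa (chr17:34092239-34092398, plus strand): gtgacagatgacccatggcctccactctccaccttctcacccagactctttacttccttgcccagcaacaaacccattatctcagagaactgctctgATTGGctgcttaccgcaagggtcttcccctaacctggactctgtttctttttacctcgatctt

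H2-DMb2 (chr17:34145109-34145268, plus strand): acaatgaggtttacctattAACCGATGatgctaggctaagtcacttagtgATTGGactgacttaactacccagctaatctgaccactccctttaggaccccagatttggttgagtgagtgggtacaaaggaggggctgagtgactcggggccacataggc

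Both strands were searched, and no match of one motif overlaps a match of the other. The Y box letters began 59 bases before the start in H2-Eb1, 48 in H2-Aa, 43 in H2-Oa and 90 in H2-DMb2. H2-Eb1 had a further match on the other strand, 35 bases before the start. The X box core began 89 bases before the start in H2-Eb1 and 121 in H2-DMb2, so the highest and the lowest of the 4 genes carried it. In windows from 250 bases before to 50 after the start, ATTGG was in 5 of 9 promoters of the class II list (8 of 12 genes matched) and in 37.4% of all 32851 RefSeq promoters. The X box core was in 3 of the 9 and in 2.32% of all. Among the 300 highest genes, 252 matched with 334 promoters, of which 37.4% held ATTGG and 1.20% the X box core. A match is a description of letters, not a site in use. The search took only these letters, so a gene without a match was not shown to lack the box.

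Class I presentation genes reached less far up the order. Of 18, 5 were among the 300 highest (27.8%) and 17 above the floor (94.4%), beside 2.42% and 52.2% of all genes. H2-D1 led, with probe sets from 31376 down to 111. H2-D1 and H2-K1 (5280, rank 454) are near-identical in sequence, so their signals may not be separate. B2m, the light chain, had 18113 (rank 87) and 10760 on its other probe set. Tapbp, tapasin, which holds the class I molecule at the peptide transporter, had 22708 (rank 65) and 140 on its other probe set. Psme1, an activator of the proteasome, had 14890 (rank 118). The chaperone Calr had 7975 (rank 261). The transporter chains Tap1 and Tap2 had 3822 (rank 658) and 825 (rank 2345). Of the 48 proteasome genes, 3 were among the 300 highest (6.25%) and 46 above the floor (95.8%), among them the immunoproteasome subunit Psmb8 with 5205 (rank 465).

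Of 44 lysosomal genes, 8 were among the 300 highest (18.2%) and 41 above the floor (93.2%), beside 2.42% and 52.2% of all genes. After Cst3 and Gm2a came Plbd1, a phospholipase-like protein, with 23243 (rank 63), and Atp6ap2, an accessory protein of the proton pump, at rank 72. Among the proteases, Ctsb had 7868 (rank 269) on its brightest of 4 probe sets and 303 on its lowest. Ctsd (156) was just above the floor, and Lgmn (98.2) and Ctse (73.6) were under it. The highest lysosomal genes thus included the protease inhibitor Cst3, and the individual proteases ranged from 7868 to under the floor.

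**Figure D3:**
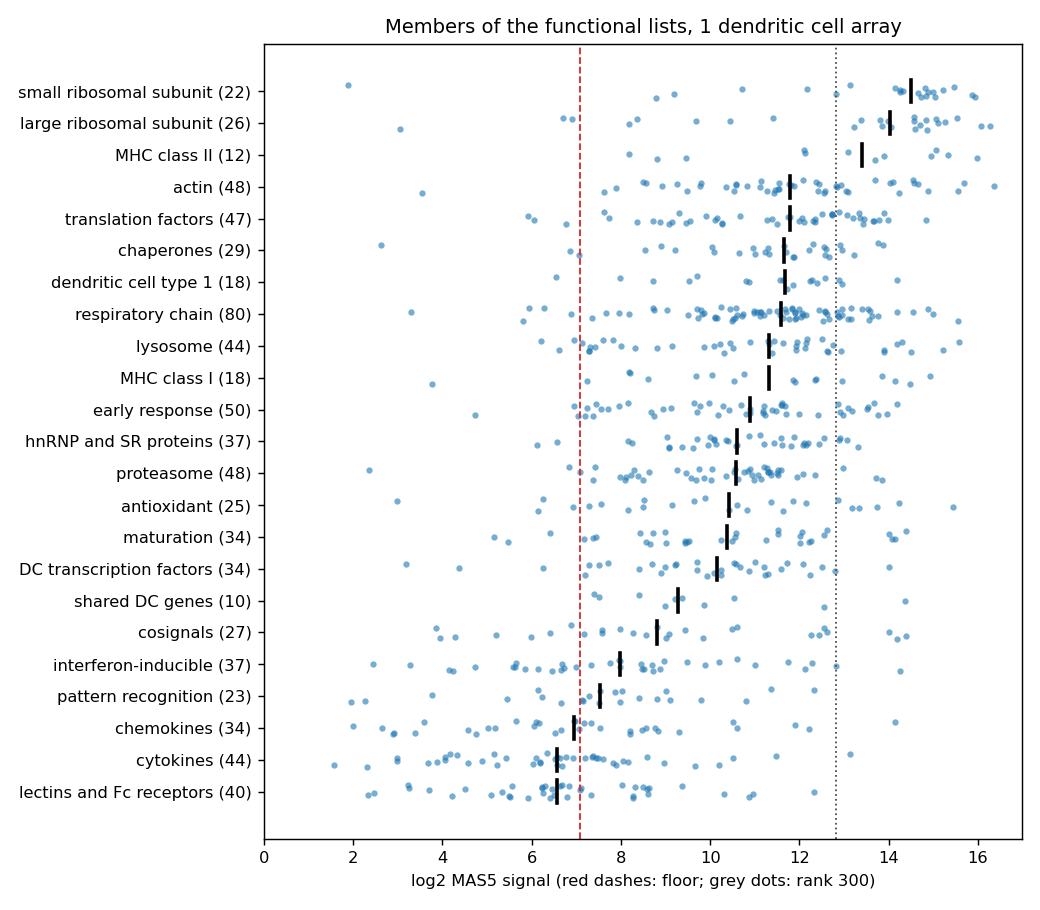
Log2 MAS5 signal of each measured gene of the functional lists on the dendritic cell array, 1 point a gene, with the floor and the signal at rank 300 drawn as vertical lines. Most ribosomal genes lay to the right of the rank 300 line, and most chemokine and cytokine genes lay left of the floor.

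The machinery of protein synthesis and energy was high as a group. Of 26 large-subunit and 22 small-subunit ribosomal genes, 18 and 16 were among the 300 highest (69.2% and 72.7%, beside 2.42% of all genes). Their median percentiles were 99.2 and 99.5. The lowest members were Rpl37 (105) and the tissue-restricted relatives Rpl39l (120), Rpl3l (8.27) and Rps4l (3.70), all under the floor. Ribosomal protein genes have many processed copies, so their probe sets may share RNA. Of 47 translation factors, 13 were among the 300 highest (27.7%), led by Eef1a1, which brings aminoacyl tRNA to the ribosome, with 29461 (rank 36). Of 80 genes of oxidative phosphorylation, 19 were among the 300 highest (23.8%) and 75 above the floor (93.8%, beside 52.2% of all genes). The complex IV subunit Cox7a2 (rank 31) and the ATP synthase subunit Atp5e (24074, rank 59) followed Cox5b and Ndufb11. Of 16 genes of glycolysis, 4 were among the 300 highest (25%): Aldoa (19636), Pfkp (14160), Ldha (12243) and Pgk1 (11357).

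Actin genes stood high, with 16 of 48 among the 300 highest (33.3%) and 47 of 48 above the floor (97.9%). The shares of all genes were 2.42% and 52.2%. Below the thymosins and cofilin came Actb (30055, rank 33), cytoplasmic beta-actin. The exception under the floor was Capg (11.6), an actin-capping protein. Of 25 antioxidant genes, 6 were among the 300 highest (24%). They were led by Sod1, followed by Selenow (19260), Gpx1 (13626), which reduces hydrogen peroxide, and Txn1 (10402), thioredoxin. Hmox1, the inducible heme oxygenase, had 70.7, under the floor. The metal-binding metallothionein Mt1 had 14814 (rank 119) on a probe set of the shared type and 101 on its other one. Mt2 had 2376 (rank 1050), Mt3 48.2 and Mt4 13.3. The metal sensor Mtf1 had 150 and the zinc exporter Slc30a1 19.5.

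Genes of the conventional dendritic cell lineages were present in unequal measure. Of 18 genes of the first lineage (cDC1), 3 were among the 300 highest (16.7%), 11 among the 1000 highest (61.1%) and 17 above the floor (94.4%). For all genes these shares were 2.42%, 8.07% and 52.2%. The cDC1 genes were led by Cd24a (18722, rank 82), a mucin-like surface protein that also ranked 2 on the eosinophil array. Itgae, which both branches described above carry, came next. Rab7b (7524, rank 290), a small GTPase of late endosomes, followed, with 93.9 on its other probe set. Ppt1, a lysosomal thioesterase, had 6117 (rank 379). The defining factor Batf3 had 839 (rank 2323) and the chemokine receptor Xcr1 251 (rank 4708), so these were above the floor and far below the markers given for the cells. Of 15 genes of the second lineage (cDC2), 1 was among the 300 highest (6.67%) and 2 among the 1000 highest (13.3%). Above the floor were 8 (53.3%), about the share of all genes. Notch2, the receptor on which the lineage depends, had 16504 (rank 100) on 1 probe set and 12.9 on the other. It was higher on the eosinophil array (28110, rank 21). Il1r2, the decoy receptor for interleukin-1, had 7138 (rank 310), Klf4 2397 and the factor Irf4 1213 (rank 1796). Sirpa had 518 (rank 3161), and Cd209a (60.1) and Mgl2 (47.0) were under the floor. The CD11c+MHCII+ gate can hold both lineages and macrophages, and on an array of a whole population fewer cells of a type and less RNA per cell cannot be told apart.

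Of the 10 genes shared by both lineages, all were above the floor, beside 52.2% of all genes. Among the 1000 highest were 2 (20%, beside 8.07%), Dpp4 and Itgax, and the median percentile was 77.4. Spi1 (PU.1), a factor of myeloid cells, had 1493, the growth factor receptor Flt3 657 and the lineage factor Zbtb46 592. The list of dendritic cell transcription factors also holds the receptor Notch2, and 31 of its 34 genes were above the floor (91.2%). Notch2 was its 1 gene among the 300 highest (2.94%, beside 2.42% of all genes). The highest transcription factors were the DNA-binding partner of Notch2, Rbpj (7135, rank 311), the aryl hydrocarbon receptor Ahr (5831, rank 408) and Irf8. Transcription factors therefore lay mostly between the floor and the signal at rank 300.

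Genes of dendritic cell maturation were in part very high. Of 34 genes, 4 were among the 300 highest (11.8%), 13 among the 1000 highest (38.2%) and 31 above the floor (91.2%). For all genes the shares were 2.42%, 8.07% and 52.2%. Cd83, a maturation marker that holds class II at the surface, had 21500 (rank 66), and Cd86, a costimulator of T cells, had 16611 (rank 99) with 3398 on its other probe set. Basp1, a membrane-bound cytoskeletal protein, had 17294 (rank 93) here and 25239 (rank 27) on the eosinophil array. The inhibitory ligand Cd274 (PD-L1) had 6255 (rank 368). The costimulators Cd80 and Cd40 were lower, at 1448 (rank 1578) and 693 (rank 2608). Ccr7, the receptor that guides dendritic cells to lymph nodes, had 2945 (rank 858). Among genes outside this list, Havcr2 (TIM-3) had 6026 (rank 389) and Pvr (CD155) 5547 (rank 431). The receptor Cxcr4 had 5242 (rank 462) and the gut-homing receptor Ccr9 had 1578 (rank 1464), also outside it.

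Secreted signals reached the 300 highest at about the share of all genes (2.42%), with 1 of 34 chemokine genes (2.94%) and 1 of 44 cytokine genes (2.27%). Above the floor were 15 of the 34 chemokine genes (44.1%, beside 52.2% of all genes). Ccl17 was followed by Ccl22 (4781, rank 516), which binds the same receptor, by Cxcl16 (3832, rank 654) and by the interferon-induced Cxcl9 (1552). Of the 44 cytokine genes, 17 were above the floor (38.6%). Il1b, the precursor of interleukin-1 beta, had 9003 (rank 225) and Mif 2870 (rank 885). Tgfb1, the precursor of a factor for regulatory T cells, had 1469, and Ebi3, a chain of interleukin-27, had 1171. Il12b had 173, Il10 121, Il6 103 and Il23a 2.98, the last 3 under the floor. Aldh1a2, which makes the retinoic acid known for imprinting gut homing, had 1174 (rank 1836). Of 24 retinoid genes, 10 were above the floor (41.7%, beside 52.2% of all genes).

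Of 23 pattern recognition genes, 16 were above the floor (69.6%, beside 52.2% of all genes) and 2 among the 1000 highest (8.70%, beside 8.07%). Clec7a (Dectin-1), a receptor for fungal glucans, had 5176 (rank 468). Tlr3, which senses double-stranded RNA in endosomes, had 1776 and 5.8 on its other probe set. Of 40 lectin and Fc receptor genes, 16 were above the floor (40%). The adaptor Tyrobp had 1986 (rank 1214) and the endocytic receptor Ly75 (DEC-205) 1878 (rank 1276).

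Of 37 genes of the interferon response, 1 was among the 300 highest (2.70%), about the share of all genes (2.42%). By the median of a gene's probe sets 3 were, and 2 without those ending in _x_at or _s_at. Above the floor were 22 (59.5%, beside 52.2% of all genes). Ifitm3, which blocks the fusion of virus with endosomes, had 19704 (rank 75). It was followed by Samhd1 (7220, rank 305), which removes free nucleotides, Ifitm2 (4983, rank 492) and Ifitm1 (4497, rank 547). Their starts are shown from RefSeq (GRCm38.p6) for the highest Ifitm gene and a lower one, from 100 bases before to 30 bases after the start, on the gene's strand, with capitals for the interferon response core GAAANNGAA.

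Ifitm3 (chr7:141010715-141010844, minus strand): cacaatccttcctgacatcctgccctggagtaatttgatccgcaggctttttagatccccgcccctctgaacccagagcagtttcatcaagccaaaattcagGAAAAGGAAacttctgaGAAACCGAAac

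Ifitm2 (chr7:140955932-140956061, minus strand): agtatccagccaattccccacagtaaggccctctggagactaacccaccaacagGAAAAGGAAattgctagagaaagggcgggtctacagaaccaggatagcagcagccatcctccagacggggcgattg

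The core began at bases 3 and 20 from the start in Ifitm3 and 46 bases before the start in Ifitm2. Over the longer windows it was in 20 of 36 promoters of the interferon list (30 of 37 genes matched) and in 8.56% of all promoters, on either strand. The interferon list holds genes chosen for that response, so the share describes the list.

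Early response genes are switched on within minutes of a stimulus or of stress. They were read on a list that also held genes of cell handling, and this list was well represented. Of the 50 genes of this list, 11 were among the 300 highest (22%), 20 among the 1000 highest (40%) and 47 above the floor (94%). The shares of all genes were 2.42%, 8.07% and 52.2%. Nfkbia, the inhibitor of NF-kappaB, had 18583 (rank 83) with 4465 on its lowest probe set. Hsph1, a heat shock protein, had 16065 (rank 105), the kinase Pim1 13953 (rank 130) and Btg1, a brake on proliferation, 13096 (rank 145). Fos had 5467 (rank 440) and Egr1 3091 (rank 815). Of 29 chaperone genes, 5 were among the 300 highest (17.2%), among them P4hb (15132) and Hspa8 (13915). By the median of a gene's probe sets 8 were, and 8 without those ending in _x_at or _s_at. Of 27 cell cycle genes, 1 was among the 300 highest (3.70%, beside 2.42% of all genes). It was Pcna (7955), the sliding clamp of DNA replication, whereas Top2a had 633 and Mki67 587.

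Markers of other cell types were mostly near or under the floor. Their shares above the floor are given beside 52.2% of all genes. Of 10 eosinophil markers, 1 was above the floor (10%), Adgre1 (F4/80) at 327, which macrophages also carry. The eosinophil granule proteins Epx (9.6) and Prg2 (7.4) were at the bottom of the order. The summed signal of that list was 849 here and 42833 on the eosinophil array. Of 18 macrophage markers, 7 were above the floor (38.9%), with a summed signal of 15728 here and 15031 on the eosinophil array. The near-equal sums do not rest on the same genes, since Lyz2, lysozyme, had 7813 (rank 274) here and 99.2 on the eosinophil array. Cd14 had 2641 (rank 955), Cd68 2573 (rank 979) and Csf1r 1121. The complement genes C1qb (395) and C1qa (153) and Adgre1 completed the 7. The other 11 markers were under the floor, among them Fcgr1 (99.9), Cx3cr1 (62.4), Mertk (59.1), Cd163 (41.2) and the third complement chain C1qc (33.7).

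Of 21 epithelial markers, 9 were above the floor (42.9%) with a summed signal of 13283, of which Lyz1 gave 9472 (rank 210). Lyz1, the Paneth cell lysozyme, is near-identical to Lyz2, and 2 of its 3 probe sets are of the type that may bind several genes, so its signal is uncertain. After Lyz1 came Anpep with 1623 (rank 1439). Epcam had 336 and Fabp2 226, while Fabp1 (7.6) was under the floor. Of 16 T and NK cell markers, 7 were above the floor (43.8%), led by Cd3e (557). Of 8 plasma cell markers, 5 were above it (62.5%), more than the 52.2% of all genes. They were led by Igha (643) and Ighm (630), and the summed signal was 2372. Of 11 B cell markers 3 were above the floor (27.3%), with Fcrla highest at 156. Of 11 mast cell markers 2 were (18.2%), with Kit at 291, and of 11 monocyte and neutrophil markers 2 (18.2%), with S100a8 at 176. Of 17 stromal markers 5 were above it (29.4%), with Vwf at 640. Of 10 plasmacytoid dendritic cell markers 5 were (50%), with Ccr9 highest. The part of such cells in the order was not tested.

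**Figure D4:**
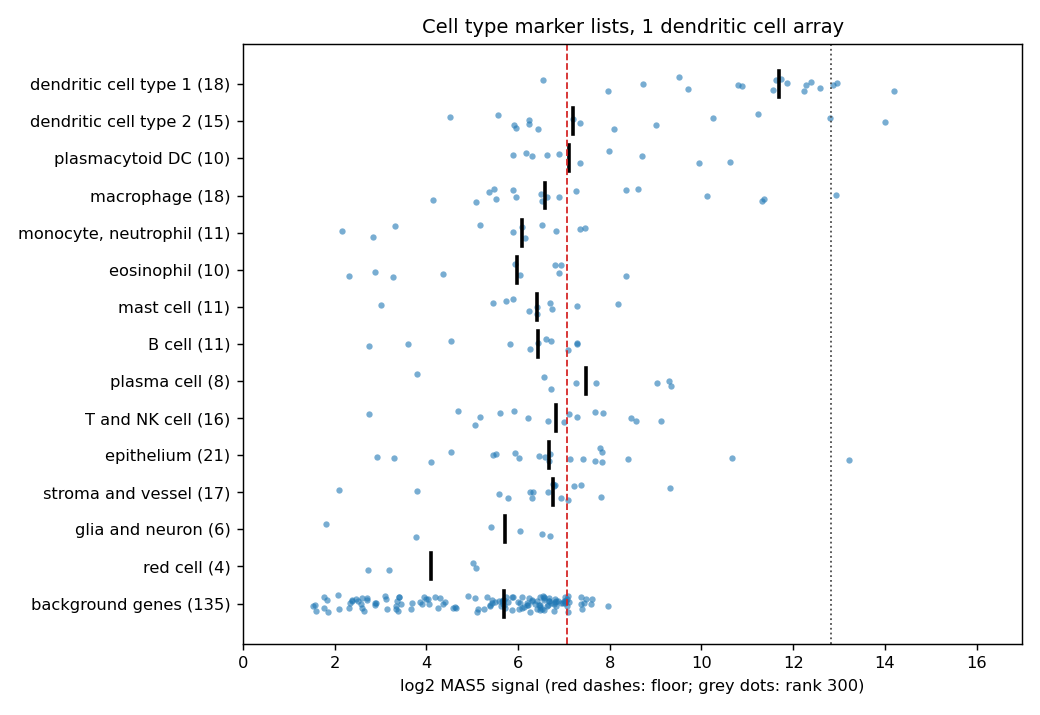
Log2 MAS5 signal of each measured marker gene on the dendritic cell array, by cell type, 1 point a gene, with the floor and the signal at rank 300 drawn as vertical lines. Above the floor lay 17 of 18 cDC1 genes and 8 of 15 cDC2 genes, whereas 1 of 10 eosinophil markers did.

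The place of a gene depended on which of its probe sets was read. Of the 300 highest genes, 88 (29.3%) had a single probe set, against 60.0% of all genes. Of the 212 with several, 14 had all of them at or above the signal of rank 300, and 62 had at least 1 under the floor. The median gap between the brightest and the lowest probe set was 4.70 on the log2 scale. Probe sets whose design name marks them as likely to bind several sequences (the ending _x_at) represented 60 of the 300 genes and 3.82% of all genes. With the median of a gene's probe sets in place of the brightest, 182 of the 300 genes kept a place among the 300 highest, and without probe sets ending in _x_at or _s_at 227 did. Under the latter rule 18 of the 300 genes, among them Rps29, H2-Aa and Pttg1ip, had no probe set left and could not keep a place. By the median, Cd74 ranked 1 and H2-Eb1 6, while Tmsb10 went to 36, Cfl1 to 72, Rpl41 to 287 and Rpsa to 256. Without probe sets ending in _x_at or _s_at, Cd74 ranked 1, Rpsa 2 and H2-Eb1 8, while Cfl1 went to 630, Rpl41 to 2574 and Tmsb10 to 7417, under the floor. Of the 30 highest genes, 28 stayed among the 300 highest by the median and 22 without the probe sets ending in _x_at or _s_at.

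**Figure D5:**
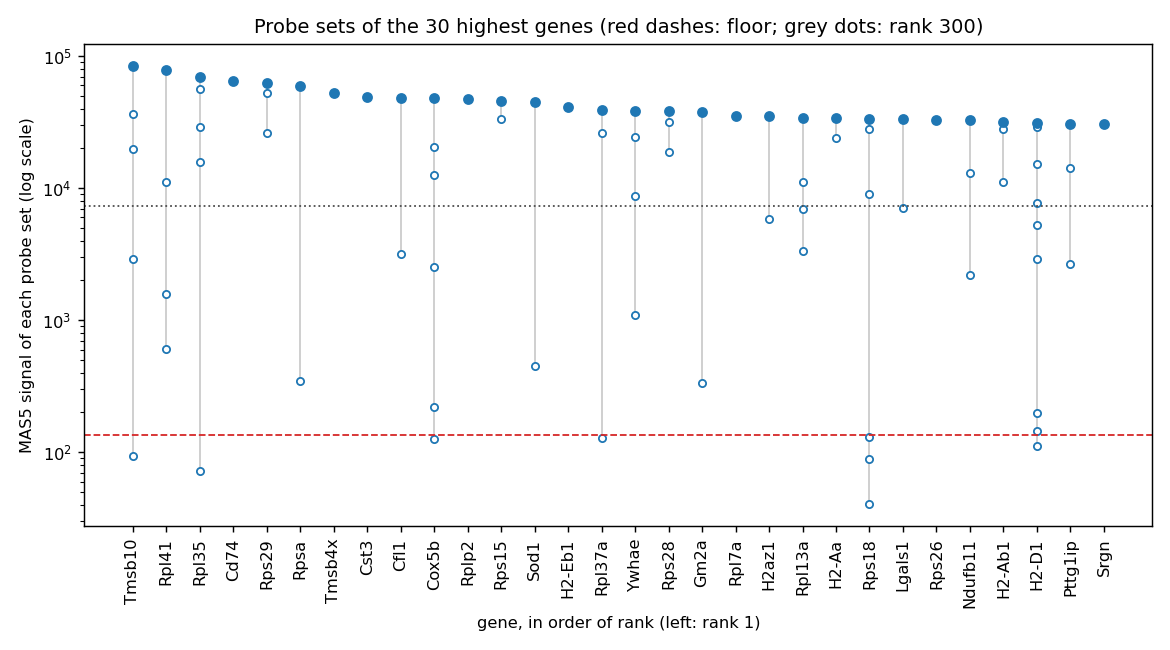
MAS5 signal (log scale) of every probe set of the 30 highest genes on the dendritic cell array, in order of rank, with the floor and the signal at rank 300 drawn as horizontal lines. Tmsb10 ranged from 84427 down to 93.4, whereas the lowest of the 3 probe sets of Rps29 gave 26416.

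The highest genes were also short. The median genomic span (RefSeq, GRCm38.p6) was 9.78 kb for the 300 highest genes, with quartiles of 4.23 and 28.1 kb, and 20.1 kb for the 12369 of all genes with a span. Within the 300, the ribosomal genes had a median span of 3.71 kb, the antigen presentation genes 5.40 kb and the signalling genes 38.2 kb. The arrays read the 3' end, and the labelled RNA thinned toward the 5' end: for Actb the 3' control probe set gave 18576, the middle one 4499 and the 5' one 2064, a ratio of 9.0, and for Gapdh the ratio was 6.58. On the eosinophil array these ratios were 6.38 and 9.81. The part of RNA length and of labelling in the order was not tested.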

How the data were processed

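Total RNA of sorted cells was extracted with Trizol and labelled through an amplification kit, per the labels' protocols, and hybridised to 3' expression arrays. The deposited table holds 1 linear intensity for each probe set and no detection calls. The submitters' processing notes name MAS5 (version 5.0) as the software. The trimmed mean (2% off each end) was 499.9 on both arrays. Their number, 1 array per population, limits the precision, and no test was made.

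Of 22690 probe sets, 64 were controls, 691 had several genes and 1555 were not listed in the platform annotation, and these were left out. At or above the signal of rank 300 stood 104 of the 691 and 46 of the 1555. Symbols were updated through Entrez identifiers for 20351 probe sets. Genes were ranked by the brightest probe set on the dendritic cell array with Python 3.11.15 and pandas 2.3.3. The ranking was tested on simulated data in which the brightest probe set held each gene's level. That test checks the code and cannot judge the choice of probe set. Alternatives were the median of a gene's probe sets, leaving out probe sets ending in _x_at or _s_at, the highest mean over both arrays, 2 other floors, and lists of 100 and 1000 genes.

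The members, the 50 gene lists and the settings were chosen with earlier results of these data known. Named genes were the 30 highest, up to 4 highest of each list, all markers given for the cells, all class II, gate and metallothionein genes, 3 genes on each side of rank 300, and markers of other cells among the 1000 highest. Other genes named (such as Batf3, Xcr1, Flt3, Zbtb46, Tap1, Il10, Mertk and the lowest list members), the classes and the promoters shown were chosen after their values were seen.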

Additional observations from a re-analysis of the deposited data

How the results depend on the processing

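With the median of a gene's probe sets, genes at or above 10000 numbered 93 in place of 197 and those from 3000 to 10000 numbered 339 in place of 643. The 300 highest then gave 45.4% of the summed signal and shared 182 genes with the order by brightest probe set. Maturation genes among the 300 highest numbered 8 in place of 4, and translation factors 8 in place of 13. Without probe sets ending in _x_at or _s_at, class I genes numbered 3 in place of 5. Costimulation genes numbered 5 in place of 3 by the median, and vesicle genes 0 in place of 4. A list of 100 genes in place of 300 held 4 class II, 3 class I, 1 cDC1, 1 translation, 10 actin, 5 lysosomal, 5 oxidative phosphorylation, 1 early response and 2 antioxidant genes. A list of 1000 genes held 9 class I, 11 cDC1, 13 maturation, 27 translation, 30 actin, 23 lysosomal, 43 oxidative phosphorylation, 20 early response and 10 antioxidant genes, since the longer list is wider by construction. Both other floors moved the count of genes above the floor by less than 1.5 times, and the highest mean over both arrays kept 299 of the 300 genes. Signals near or under the floor cannot be ordered, and 1 array gives no replicate error.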

Other observations

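Some high genes without a known link to dendritic cells, chosen after their values were seen, rested on single probe sets of the type that may bind several sequences. Cntd1 had 27776 (rank 44) on such a probe set and 855 and 9.7 on its others, and its rank by the median was 1456. Erdr1 had 26290 (rank 48) on its single probe set. Fen1, a nuclease of DNA replication, had 13961 (rank 129) and 279 on its other probe set.

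The letters CTTTCC, searched on both strands after the order had been seen, were in 23 of 50 promoters of ribosomal protein genes, in 24 of 52 of early response genes and in 16 of 36 of interferon response genes. They were in 31.7% of the promoters of the 300 highest genes, in 26.8% of those of the genes on the array and in 26.6% of all RefSeq promoters. The letters TATAAA were in 12.3% of the promoters of the 300 highest genes, in 9.81% of those of the genes on the array and in 13.6% of all.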
